A study of Macaca mulatta with 8 samples.

Results

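Cluster 6 is 1 of 6 clusters into which the authors divided the conventional CD4 T cells (their class Tconv) of rhesus macaque blood. Its members were the cells that carried cluster number 6 in the authors' deposited cell table, in any library. They numbered 2967 of 25397 cells in the series and 2967 of 17212 Tconv cells, and the 14245 other Tconv cells lay in clusters 5 and 7 to 10. The clusters were made by the authors from these cells' own data, so differences between cluster 6 and the rest are described here and not tested.

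Naive CD4 T cells have not yet met their antigen. They circulate between blood and lymph nodes with the help of the chemokine receptor CCR7, and they are kept quiescent by factors such as TCF7, LEF1 and BACH2. Memory and effector CD4 cells lose part of this programme and gain adhesion molecules, calcium-binding S100 proteins, annexins and galectins. IL7R, the receptor chain for the survival cytokine IL-7 (also called CD127), is found on both naive and memory cells and is low on regulatory T cells (Tregs).

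The series followed adoptively transferred Tregs in macaques by droplet-based single-cell RNA sequencing of blood cells on day 20 and day 3. Cryopreserved mononuclear cells were thawed, enriched for CD4-positive cells with magnetic beads and sorted, and each sort gave 1 library on each day, 8 in all. The sorts were CFSEpos (cells that carried the dye CFSE, which the series title lets one take for the transferred Tregs), Endo (CD3+CD4+CD25hiCD127lo, the surface phenotype of Tregs), CD127posCD25pos and CD127posCD25neg. CD25 is the product of IL2RA. The labels name no animal, strain, age or treatment for any library, and with 1 library per sort and day no p-value was computed. The intervals given with counts and shares are 95% intervals that cover counting error only. Of 25012 cell barcodes, 382 occurred in more than 1 library, and 87 cells of cluster 6 carried such a barcode.

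Cluster 6 was mainly a population of the CD127posCD25neg sort, which held 2457 of its cells (82.8%, Clopper-Pearson interval 81.4 to 84.2%). It made up 1289 of 3620 Tconv cells in CD127posCD25neg_D20 (35.6%, 34.0 to 37.2%) and 1168 of 2960 in CD127posCD25neg_D3 (39.5%, 37.7 to 41.2%). In the CD25-bearing sorts it was rarer by a wide margin. It made up 99 of 1356 Tconv cells in Endo_D20 (7.30%, 5.97 to 8.82%) and 126 of 2037 in Endo_D3 (6.19%, 5.18 to 7.32%). In CD127posCD25pos_D20 it held 177 of 4450 (3.98%, 3.42 to 4.59%) and in CD127posCD25pos_D3 103 of 2675 (3.85%, 3.15 to 4.65%). The intervals of the CD127posCD25neg libraries did not overlap those of the Endo or CD127posCD25pos libraries on either day. The CFSEpos sort contributed 4 of 63 Tconv cells on day 20 (6.35%, 1.76 to 15.5%) and 1 of 51 on day 3 (1.96%, 0.0496 to 10.4%). Its intervals lay below those of CD127posCD25neg and overlapped those of Endo and CD127posCD25pos. Sorting on CD25 and CD127 sets which cells enter a library, so these are shares within sorted cells and not within blood.

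**Figure D1:**
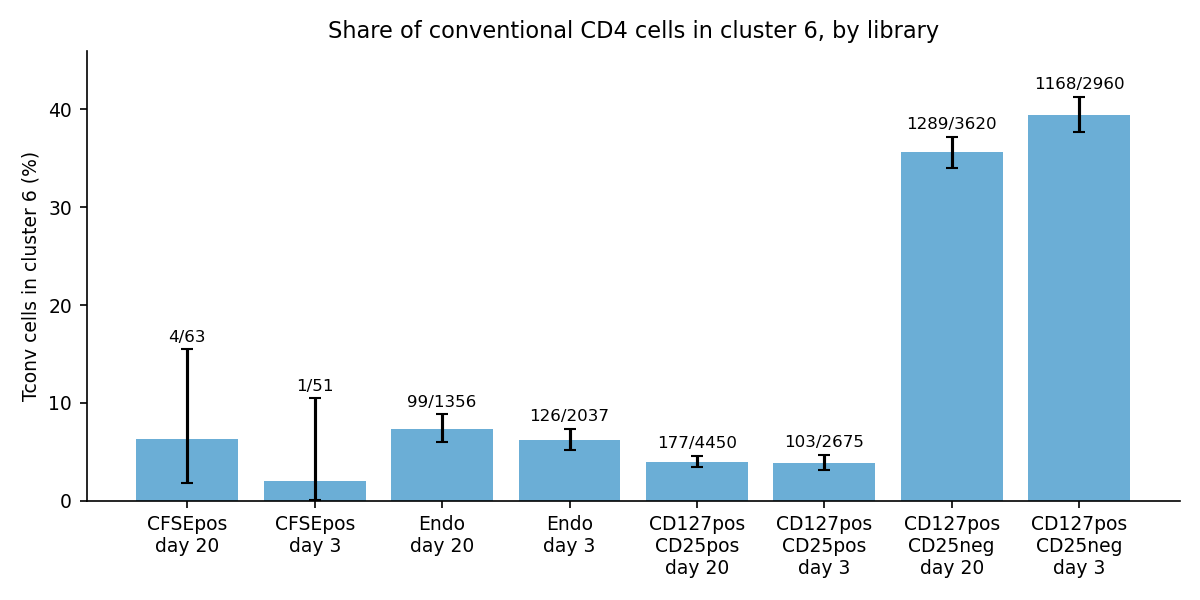
Percent of the Tconv cells of each library that lay in cluster 6, with Clopper-Pearson 95% intervals as error bars and the numbers of cells above the bars. The CD127posCD25neg libraries stand at 35.6% on day 20 and 39.5% on day 3, and the Endo and CD127posCD25pos libraries between 3.85 and 7.30%.

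The label of conventional CD4 T cells was checked against defining markers, with values in CPM, the usual scaling of counted RNA molecules (UMIs) summed over the cells compared to a common total. IL7R stood at 681 CPM in cluster 6 pooled over libraries (663 to 700), against 874 CPM in the other Tconv cells. CD3D, a chain of the T cell receptor complex, was at 1112 CPM in cluster 6 and 1200 CPM in the other Tconv cells. CD4 RNA itself was sparse in both, at 4.38 CPM in cluster 6 (33 UMIs) and 4.55 CPM in the other Tconv cells, although the cells had been enriched by the CD4 protein. CD8A was seen with 1 UMI in cluster 6 and 8 UMIs in the other Tconv cells. The markers thus fit T cells of the CD4 lineage, for which the cells had been enriched. IL7R encodes CD127, and most cells of cluster 6 came from CD127-positive sorts, so its level was partly set by sorting. The pooled values also mix sorts, over sums of 7538348 UMIs in cluster 6 and 36009139 UMIs in the other Tconv cells. FOXP3, the Treg transcription factor, had 40 UMIs in cluster 6 and 246 UMIs in the other Tconv cells, and its values by library are given below, since the sorts make up different parts of both sums.

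Markers of other blood cells were low. The B cell, monocyte, dendritic cell and platelet lists each summed to at most 45.6 CPM in cluster 6 in any of the 6 libraries with 50 or more of its cells. The B cell sum was nonetheless higher in cluster 6 in each of the 6, at 24.3 to 45.6 CPM in cluster 6 and 16.7 to 35.0 CPM in the other Tconv cells. CD79A, a chain of the B cell receptor complex, had 20.3 CPM in cluster 6 and 10.4 CPM in the other Tconv cells over all libraries, while the B cell surface protein MS4A1 had at most 1 UMI in cluster 6 of any library. The part of B cell RNA in the comparisons below was not tested. S100A8, NCAM1 and KLRF1 had no UMI in cluster 6. The 10 NK cell markers summed to 37.0 to 131 CPM in cluster 6 and 45.7 to 708 CPM in the other Tconv cells. Most of that sum in cluster 6 was TYROBP, a signalling adaptor best known from NK and myeloid cells, which is taken up below. Red cell markers (4 of 7 found) summed to 132 to 182 CPM in cluster 6 and 126 to 2658 CPM in the other Tconv cells. HBB, a haemoglobin chain, accounted for that range, with 2473 CPM in the other Tconv cells of Endo_D3 against 23.8 CPM in cluster 6 there, and its part in the comparisons below was not tested.

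Cells of cluster 6 were sequenced about as deeply as the rest but held fewer kinds of RNA. The median cell had 2482 UMIs in cluster 6 and 2423 UMIs in the other Tconv cells, with 708 genes detected in cluster 6 and 783 genes in the others. After each cell was thinned to 1000 UMIs, the median was 381 genes in cluster 6 (quartiles 366 to 398) and 423 genes in the other Tconv cells (400 to 453), with 0 shallower cells left out of cluster 6 and 9 of the others. The thinned median of cluster 6 lay between 374 and 393 genes in each of 6 libraries, against 407 to 446 genes in the other Tconv cells of the same libraries, with no overlap. Ribosomal protein genes took a median 47.2% of a cell's UMIs in cluster 6 and 41.5% in the other Tconv cells.

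Genes were compared within each library, cluster 6 over the other Tconv cells, as log2 ratios of CPM plus a pseudocount of 10 CPM, which understates changes of low genes. The 5 libraries with at least 100 cells on both sides entered: Endo_D3, CD127posCD25pos_D20, CD127posCD25pos_D3, CD127posCD25neg_D20 and CD127posCD25neg_D3. Endo_D20 had 99 cells of cluster 6, and its values are given beside the rest. A gene was counted where it differed at least 2-fold the same way in each of the 5, with at least 50 CPM on 1 side in each. Of 1545 genes so tested, 2 were higher in cluster 6 (0.129%) and 27 were lower (1.75%). A gene under 50 CPM in cluster 6 could enter only through the other Tconv cells, which fixed its direction as lower. How many of the 27 entered in this way was not counted. The gene just inside the rule for higher genes was RGS10, with a smallest log2 ratio of 1.03, and the one just outside was CA6, with 0.98. For lower genes they were LIMS1 at -1.01 and UPP1 at -0.96. Scaling moved the balance. With median-of-ratios factors 5 genes were higher and 17 lower, so that 22.7% of calls were higher, against 6.90% here, and with ribosomal protein genes left out of the totals 7 were higher and 28 lower (20% higher). Median-of-ratios factors shifted the median gene by 0.22 log2 units, TMM factors by 0.15 and totals without ribosomal protein genes by 0.13. The median log2 ratio of the 3614 genes at 20 CPM or more was -0.21, which goes beside every list below.

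PLAC8 (ENSMMUG00000022311), a small cysteine-rich protein, stood furthest above the other Tconv cells. In cluster 6 it had 742 CPM in Endo_D3, 608 in CD127posCD25pos_D20, 644 in CD127posCD25pos_D3, 878 in CD127posCD25neg_D20 and 803 in CD127posCD25neg_D3, against 143, 133, 130, 236 and 243 CPM in the other Tconv cells of these libraries in the same order. In Endo_D20 the values were 621 CPM in cluster 6 and 87.7 CPM in the other Tconv cells. The lowest cluster 6 value was thus above the highest value of the others, and the mean log2 ratio was 2.03 ± 0.26 (SD, n = 5 libraries). PLAC8 was higher in cluster 6 than in any other Tconv cluster in each of 6 libraries, with cluster 10 next, at 726 CPM in CD127posCD25neg_D3 against 803 CPM in cluster 6.

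RGS10 (ENSMMUG00000021610), a regulator that shortens signalling from G protein-coupled receptors, was the other gene that met the rule. In cluster 6 it had 219 CPM in Endo_D3, 186 in CD127posCD25pos_D20, 212 in CD127posCD25pos_D3, 251 in CD127posCD25neg_D20 and 229 in CD127posCD25neg_D3, against 87.4, 86.0, 82.3, 90.8 and 73.6 CPM in the other Tconv cells. The mean log2 ratio was 1.28 ± 0.18. These groups also did not overlap. PLAC8 and RGS10 were picked for a 2-fold difference in each library, which leaves little room for overlap. The share of all genes without overlap was not computed.

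CA6 (ENSMMUG00000019687), a carbonic anhydrase, came close to the rule without meeting it. CA6 ran from 404 to 510 CPM in cluster 6 and from 151 to 242 CPM in the other Tconv cells, with a mean log2 ratio of 1.25. LPAR6, a receptor for lysophosphatidic acid, was also among the named genes nearest to the rule, with a mean log2 ratio of 0.77 in the 5 libraries but lower in cluster 6 in Endo_D20, at 35.1 CPM in cluster 6 and 67.5 CPM in cluster 7. CA6 and RGS10 were highest in cluster 6 among the Tconv clusters in each of 6 libraries, 5 of which had served to pick them. By mean ratio PLAC8, RGS10 and CA6 were each less than 2-fold above cluster 10, and CA6 also less than 2-fold above cluster 7. CA6 was much lower in clusters 5, 8 and 9, with means of 36.6, 36.1 and 102 CPM.

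Several scarcer genes were also higher but were too low for the 50 CPM rule. By the mean ratio alone, 15 of the 3614 genes at 20 CPM or more were at least 2-fold higher (0.415%) and 116 lower (3.21%). The higher ones included FAM101B, an actin filament regulator, at 67.8 CPM in cluster 6 and 9.37 CPM in the other Tconv cells (mean log2 ratio 1.99 ± 0.22). SGK1, a kinase induced by growth factors and glucocorticoids, averaged 48.3 CPM in cluster 6 and 8.63 CPM in the others. BACH2, a repressor that holds back effector differentiation, averaged 47.5 CPM in cluster 6 and 17.7 CPM in the others. Others were NGFRAP1, CST6, DNPH1, TYROBP, GNG11, KRT222, GAL3ST4 and NRIP1. These genes were singled out after their values were seen.

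**Figure D2:**
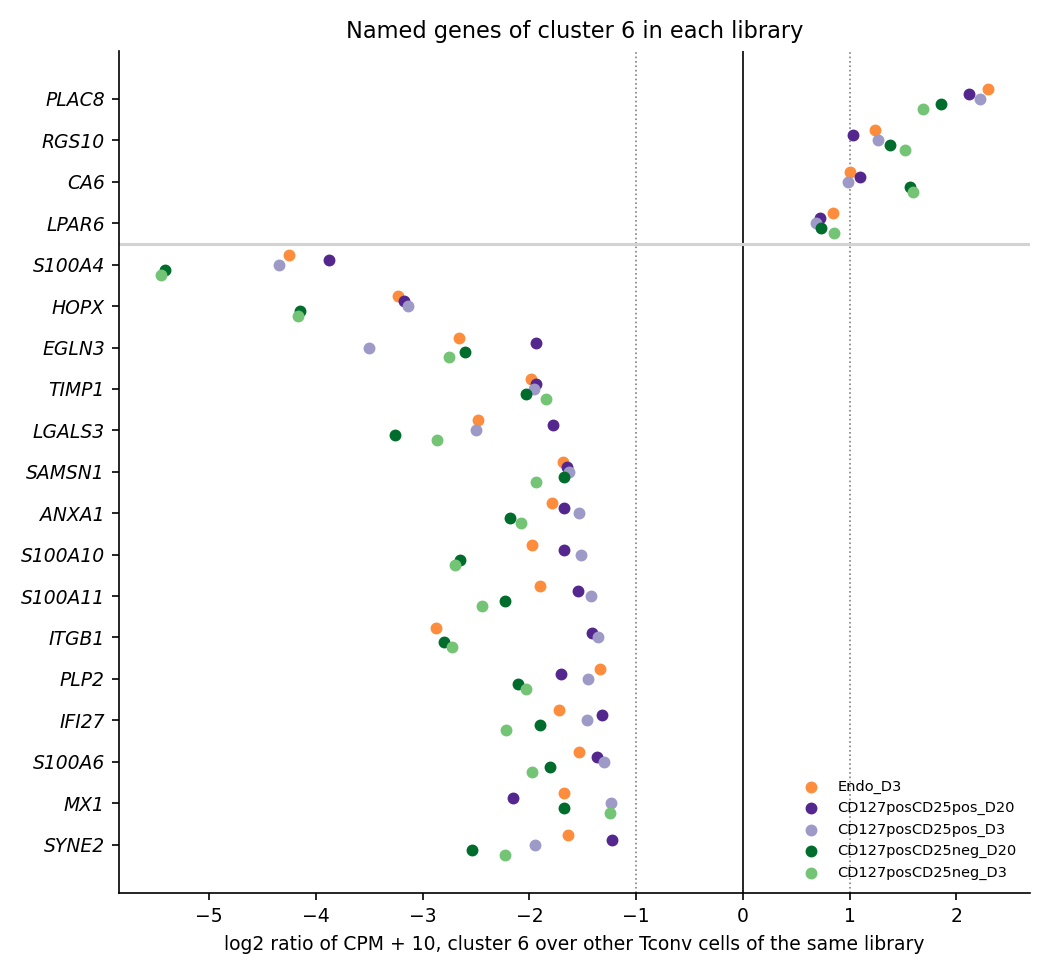
Log2 ratio of CPM plus 10, cluster 6 over the other Tconv cells of the same library (1 point per library), for genes named as higher (above the grey line) and as lower (below it). Dotted lines mark 2-fold, and of the higher genes PLAC8 and RGS10 lie beyond it in each of 5 libraries.

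Of the 27 lower genes 9 were on the memory and effector list (18 members) and 3 on the interferon list (18 members). Of the 15 named ones 7 were on the memory and effector list. Of all 1545 genes tested 1.75% were lower, and how many of them each list held was not counted. S100A4 (ENSMMUG00000010979), a calcium-binding protein linked to cell motility, had 87.1 CPM in Endo_D3, 94.4 in CD127posCD25pos_D20, 53.9 in CD127posCD25pos_D3, 50.3 in CD127posCD25neg_D20 and 59.4 in CD127posCD25neg_D3 in cluster 6. In the other Tconv cells of the same libraries it had 1846, 1521, 1293, 2561 and 3032 CPM. The ranges lay more than 10-fold apart, and the mean log2 ratio was -4.67 ± 0.72. S100A10, S100A11 and S100A6 of the same family had mean log2 ratios of -2.10, -1.91 and -1.60. S100A10 ran from 273 to 540 CPM in cluster 6 and from 1430 to 1828 CPM in the other Tconv cells.

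HOPX, a homeodomain cofactor found in effector and memory T cells, was close to undetected in cluster 6. It had 1 UMI in Endo_D3, 1 in CD127posCD25pos_D20, 0 in CD127posCD25pos_D3, 12 in CD127posCD25neg_D20 and 15 in CD127posCD25neg_D3, that is 0 to 4.87 CPM, against 78.3 to 257 CPM in the other Tconv cells. The 0 in CD127posCD25pos_D3 has an exact Poisson interval of up to 12.4 CPM. EGLN3, an oxygen-dependent prolyl hydroxylase, was similar, with 0 to 15.7 CPM in cluster 6 and 62.7 to 104 CPM in the other Tconv cells. Mean log2 ratios were -3.57 ± 0.54 for HOPX and -2.69 ± 0.56 for EGLN3, and both depend on the pseudocount because cluster 6 was so near 0.

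ITGB1, the integrin beta chain CD29 used as a memory marker, had 39.6 CPM in Endo_D3, 144 in CD127posCD25pos_D20, 118 in CD127posCD25pos_D3, 35.8 in CD127posCD25neg_D20 and 34.7 in CD127posCD25neg_D3 in cluster 6, against 354, 400, 318, 309 and 285 CPM in the other Tconv cells. Its mean log2 ratio was -2.23 ± 0.78, and within cluster 6 the CD127posCD25pos libraries stood above the others. TIMP1, an inhibitor of matrix metalloproteinases, was the steadiest, at 17.4 to 27.0 CPM in cluster 6 and 102 to 134 CPM in the other Tconv cells, with a mean log2 ratio of -1.95 ± 0.07. LGALS3, the glycan-binding galectin-3, had a mean log2 ratio of -2.58, and ANXA1, the annexin that mediates glucocorticoid effects, -1.85. The remaining named genes were SYNE2, a nuclear envelope protein (-1.92), PLP2, a membrane proteolipid (-1.73), SAMSN1, an inhibitory adaptor of lymphocytes (-1.72), and the interferon-induced IFI27 (-1.72) and MX1 (-1.60). HOPX, EGLN3, SAMSN1, LGALS3, SYNE2, MX1 and TIMP1 averaged from 2.80 CPM (HOPX) to 23.2 CPM (TIMP1) in cluster 6. They thus reached 50 CPM through the other Tconv cells, which fixed their direction. Of the 15 named lower genes, 13 were at their lowest in cluster 6 among the Tconv clusters in each of 6 libraries. As they were picked for being lower in 5 of these libraries, a low rank was partly set by that choice. The share of all genes lowest in cluster 6 was not computed. The exceptions were IFI27, lowest there in 5, and MX1, in 4.

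**Figure D3:**
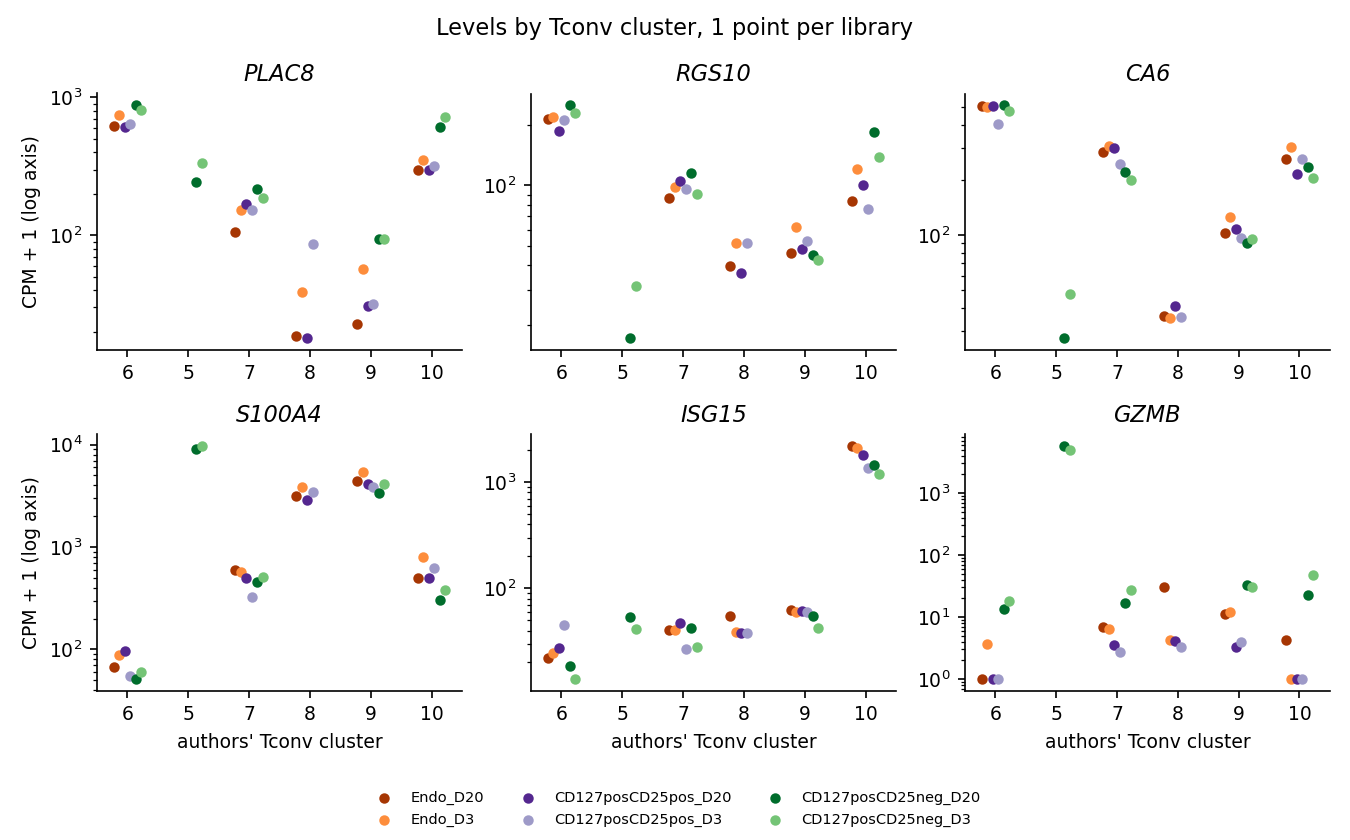
CPM plus 1 on a log axis for 6 genes in each Tconv cluster with at least 50 cells of a library, 1 point per library. S100A4 is at 50.3 to 94.4 CPM in cluster 6 and at 305.6 CPM or more in the other clusters, and the high values of ISG15 and GZMB belong to clusters 10 and 5.

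Of 18 memory and effector genes, 15 were found and 14 reached 20 CPM, and these 14 were at least 2-fold lower by mean ratio and below 0 in each of 5 libraries. Their median log2 ratio was -1.77 ± 0.44 (SD over libraries), against -0.21 for all genes, of which 3.21% were 2-fold lower and 37.3% below 0 in each library. Beyond those already given, LGALS1 (galectin-1) had a mean log2 ratio of -2.28, the intermediate filament gene VIM -1.44, the scaffold AHNAK -1.44, the actin-capping CAPG -1.17, and the adhesion receptor CD44 -1.06, while CD58 lay just past 2-fold. Of the 14, LGALS3 and AHNAK, for example, averaged under 20 CPM in cluster 6. They entered through the other Tconv cells, which fixed their direction. Counted per cell after thinning, the median cell held 2 UMIs of this list in cluster 6 (quartiles 1 to 3) and 9 UMIs in the other Tconv cells (5 to 15). Each of the other Tconv clusters had a higher median, with 5 UMIs in cluster 10, 6 in cluster 7, 15 in cluster 8, 17 in cluster 9 and 25 in cluster 5.

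The naive and quiescent list differed less. Of 15 members, 14 were found and 10 reached 20 CPM, with 2 at least 2-fold higher, BACH2 among them, and 0 lower, and a median log2 ratio of 0.17. Of all genes 0.415% were at least 2-fold higher and 3.21% lower. BACH2 averaged under 20 CPM in the other Tconv cells and entered through cluster 6, which fixed its direction. TCF7, a transcription factor of naive and memory precursor cells, had 148, 160, 121, 217 and 213 CPM in cluster 6 of Endo_D3, CD127posCD25pos_D20, CD127posCD25pos_D3, CD127posCD25neg_D20 and CD127posCD25neg_D3, against 156, 199, 177, 176 and 146 CPM in the other Tconv cells. It was lower in cluster 6 in 3 of these libraries and higher in both CD127posCD25neg ones. LEF1, its partner factor, was at 218 to 282 CPM in cluster 6 and 165 to 211 CPM in the other Tconv cells, with a mean log2 ratio of 0.40. CCR7 RNA was too sparse for the list, at 3.37 to 10.6 CPM in cluster 6 and 1.51 to 3.77 CPM in the other Tconv cells. PECAM1 (CD31, an adhesion molecule carried by recently emigrated naive CD4 cells in humans), which is in none of the lists and was singled out after its values were seen, was at 182 to 302 CPM in cluster 6 and 128 to 190 CPM in the other Tconv cells, and was higher in each of 5 libraries (mean log2 ratio 0.63 ± 0.31).

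Of 18 interferon-stimulated genes 11 reached 20 CPM, 5 of them at least 2-fold lower and 10 below 0 in each of 5 libraries, with a median log2 ratio of -0.92, beside 3.21% and 37.3% of all genes. Among the 11, MX1, MX2 and OAS1 averaged under 20 CPM in cluster 6 and entered through the other Tconv cells, which fixed their direction. ISG15, a ubiquitin-like antiviral protein, had 23.8, 26.2, 43.8, 17.4 and 13.0 CPM in cluster 6 of Endo_D3, CD127posCD25pos_D20, CD127posCD25pos_D3, CD127posCD25neg_D20 and CD127posCD25neg_D3, against 219, 153, 107, 151 and 108 CPM in the other Tconv cells. Among the other Tconv cells, cluster 10 had 1201 to 2182 CPM of ISG15. Against cluster 7 alone the interferon list had a median log2 ratio of -0.46, with 1 of 9 measured members at least 2-fold lower (ISG20).

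Cytotoxic granule genes differed by amounts that depended on the sort. Of 14 members 5 reached 20 CPM, and 4 were at least 2-fold lower, beside 3.21% of all genes. The median log2 ratio of the list was -2.29 ± 1.90. Pooled over libraries, GZMB, NKG7, GNLY and CST7 had 12.3, 3.58, 8.76 and 1.46 CPM in cluster 6. They reached 20 CPM only through the other Tconv cells, which fixed their direction. GZMB, the protease granzyme B, had 0 to 2.64 CPM in cluster 6 of the 3 CD25-bearing libraries and 12.6 and 16.9 CPM in CD127posCD25neg_D20 and CD127posCD25neg_D3. In the other Tconv cells it had 6.46 to 27.3 CPM in those 3 libraries and 1164 and 1172 CPM in the CD127posCD25neg pair. Cluster 5, with GZMB at 4962 to 5704 CPM, made up 16.9 and 18.5% of Tconv cells in CD127posCD25neg_D20 and CD127posCD25neg_D3 and at most 1.11% in the Endo and CD127posCD25pos libraries. With cluster 5 left out of the other Tconv cells, 2 genes were higher and 27 lower, 26 of them the same genes as before.

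No member of T cell receptor signalling (10 of 15 reached 20 CPM, median log2 ratio -0.36), glycolysis (8 of 15, -0.51), cell cycle (4 of 13, -0.35), activation and immediate early genes (4 of 14, -0.15), helper cytokines and CD40LG (3 of 9, -0.28) or CD4 T cell markers (6 of 10, -0.28) differed 2-fold. CD40LG, the ligand by which helper cells activate B cells, had 15.8 to 57.4 CPM in cluster 6 and 51.3 to 104 CPM in the other Tconv cells. Homing and trafficking genes (9 of 18, -0.49) included ITGB1 and the gut homing receptor CCR9, both at least 2-fold lower. Of the Treg core list (4 of 14, -0.32), TNFRSF18, the costimulatory receptor GITR, was at least 2-fold lower, at 2.92 to 13.5 CPM in cluster 6 and 38.9 to 56.8 CPM in the other Tconv cells. In the Th17 list (3 of 11, -0.65) the lectin receptor KLRB1 was lower, and among NK markers (3 of 10, -2.29) NKG7 and GNLY, which are also on the cytotoxic list, were lower and TYROBP higher. CCR9, TNFRSF18, KLRB1, NKG7 and GNLY averaged under 20 CPM in cluster 6. They entered through the other Tconv cells, which fixed their direction. Of all genes 3.21% were at least 2-fold lower and 0.415% higher. The Th1, Th2, Tfh and B cell lists had 1 measured member each (HOPX, IL4R, ICOS and CD79A), red cell markers had 2, and the co-inhibitory, MHC class II, monocyte, CD8, gamma delta, dendritic cell and platelet lists had 0.

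**Figure D4:**
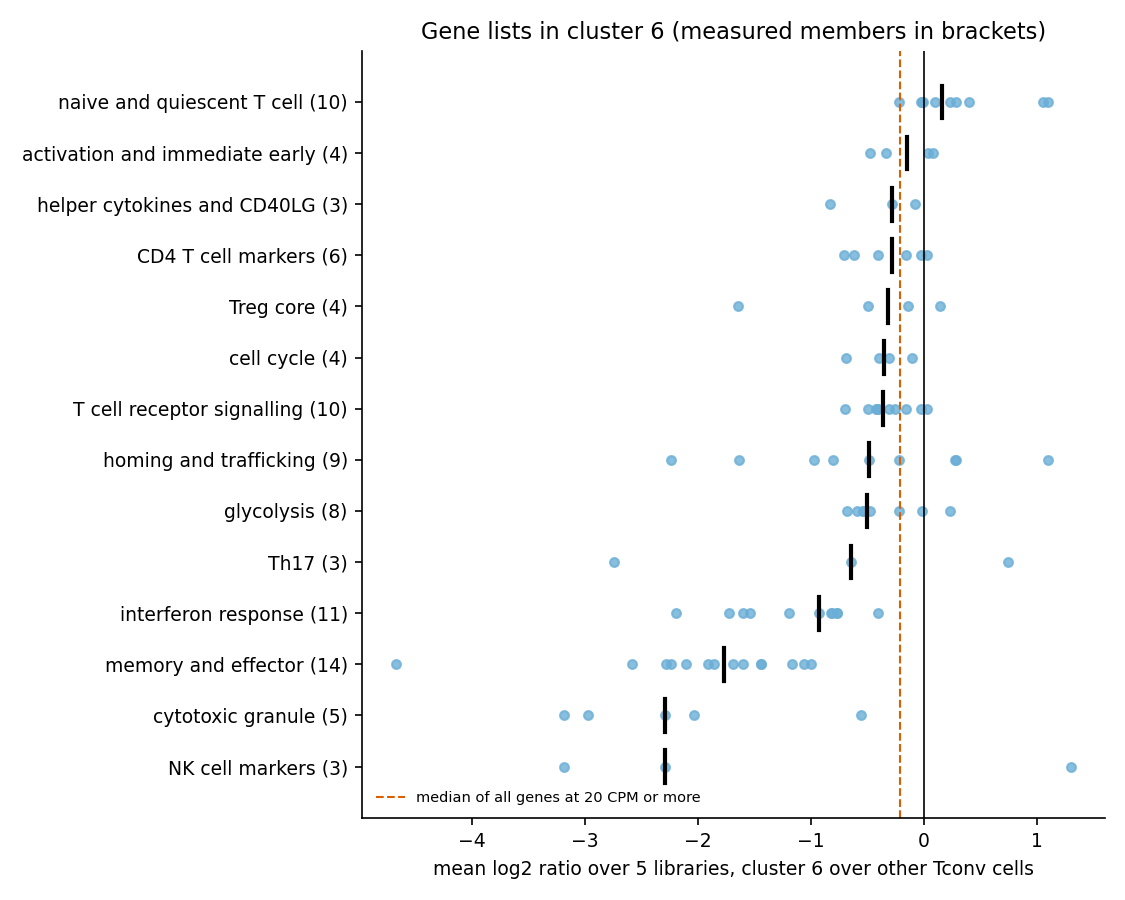
Mean log2 ratio over 5 libraries, cluster 6 over the other Tconv cells, for each measured member (point) and the median (bar) of lists with at least 3 measured members; the dashed line is the median of all genes at 20 CPM or more. The 14 memory and effector members lie between -4.67 and just past 2-fold lower, while the naive list has a median of 0.17.

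Cluster 7, with 8576 cells the largest Tconv cluster, was the most like cluster 6. Of 1706 genes at 50 CPM or more in either, 51 differed at least 2-fold in the mean ratio over 6 libraries, 7 higher in cluster 6 (0.41%) and 44 lower (2.58%). Against cluster 10 the count was 94 of 1698, with 4 genes higher in cluster 6 (0.236%), which were TYROBP, FAM101B, SGK1 and ID2, and 90 lower (5.3%), led by ISG15 and MX1. Against cluster 8, in 4 libraries, 33 of 1729 were higher (1.91%) and 102 lower (5.9%), and against cluster 9, 19 of 1825 were higher (1.04%) and 128 lower (7.01%). S100A4 led the lower genes of both comparisons, with mean log2 ratios of -5.30 against cluster 8 and -5.76 against cluster 9, and PLAC8 the higher ones, with 3.95 and 3.65. Cluster 5 was the least like it, with 55 of 2159 genes higher in cluster 6 (2.55%), CA6 and LEF1 among them, and 489 lower (22.6%), led by GZMB. The 7 higher genes against cluster 7 included PLAC8, FAM101B, TYROBP, SGK1, ID2 and RGS10. Among the 44 lower ones S100A4 had the most negative mean log2 ratio, -2.67, with 50.3 to 94.4 CPM in cluster 6 and 324 to 596 CPM in cluster 7. The memory and effector list was below 0 for 14 of 14 measured members in each of 6 libraries, with 11 at least 2-fold lower and a median of -1.48. Here too LGALS3 and AHNAK averaged under 20 CPM in cluster 6 and entered through cluster 7, which fixed their direction. Of all 3549 genes at 20 CPM or more, 28.8% were below 0 in each library and 1.66% at least 2-fold lower (0.394% higher), with a median of -0.18. The naive list had a median of 0.03, with TCF7 at -0.26 and LEF1 at 0.01. Among the 6 libraries TCF7 and LEF1 lay on both sides of 0, while BACH2 was above 0 in each (mean log2 ratio 1.11).

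TYROBP and ID2, neither of them a usual naive marker, were among these higher genes. TYROBP in cluster 6 had 63.2 CPM in Endo_D20, 31.7 in Endo_D3, 52.5 in CD127posCD25pos_D20, 43.8 in CD127posCD25pos_D3, 121 in CD127posCD25neg_D20 and 119 in CD127posCD25neg_D3, against 5.28, 6.44, 7.69, 7.53, 16.03 and 10.4 CPM in cluster 7 in the same order. It was higher in cluster 6 in each of 6 libraries (mean log2 ratio 2.01 ± 0.49). Over all cluster 6 cells the other NK cell markers KLRF1 and NCAM1 had 0 UMIs, KLRD1 1 UMI, NKG7 27 UMIs and GNLY 66 UMIs, beside 804 UMIs of TYROBP. KLRF1 in the other Tconv cells had 18 UMIs, NCAM1 24, KLRD1 196, NKG7 2880 and GNLY 4195, beside 701 UMIs of TYROBP. NCR1 had 8 UMIs in cluster 6 and 39 in the others, and NCR3 10 in cluster 6 and 335 in the others. These sums held 7538348 UMIs in cluster 6 and 36009139 in the other Tconv cells. TYROBP thus stood at 107 CPM in cluster 6 and 19.5 CPM in the others. ID2, an inhibitor of E protein transcription factors, was at 94.8 to 634 CPM in cluster 6 and 54.6 to 339 CPM in cluster 7, with a mean log2 ratio of 1.11. In the CD127posCD25neg libraries cluster 5 had still more ID2, at 1515 and 2002 CPM.

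Day 20 was compared with day 3 within cluster 6 in the 2 sorts with 100 or more cells on both days. Of 1444 genes, 0 were at least 2-fold higher and 0 lower on day 20 in both sorts (0% each). A minimum of 50 cells added Endo. Under this rule a further sort can only keep or remove calls, so the counts of 0 there were fixed in advance. In the other Tconv cells 0 of 1723 genes were higher and 1 was lower (0.058%), HBB. The closest to the rule was BATF, a transcription factor of activated T cells, with day 20 at 123 CPM and day 3 at 53.9 CPM in CD127posCD25pos. In CD127posCD25neg it had 101 CPM (day 20) and 56.5 CPM (day 3). Its log2 ratios in cluster 6 were 1.06 in CD127posCD25pos and 0.74 in CD127posCD25neg, and in the other Tconv cells 0.22 in CD127posCD25pos and 0.31 in CD127posCD25neg. PARP1, DYNLL1, TXNDC17 and PSMD8 followed with smallest log2 ratios of 0.58, 0.48, 0.45 and 0.43. In the other direction the named gene nearest to the rule was NACA2, with a smallest log2 ratio of -0.30, a near copy of NACA whose reads can be confused with it. DAD1, LGALS1, NDUFA1 and SLC2A11 came next. By the mean ratio over both sorts, 3 of 3385 genes at 20 CPM or more were at least 2-fold higher on day 20 (0.0886%), which were HAUS1, NUDCD1 and AKAP17A, and 4 were lower (0.118%), HBB and 3 genes without a symbol.

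PLAC8 and the memory and interferon lists stayed under 2-fold between days. PLAC8 in CD127posCD25pos had 608 CPM (day 20) and 644 CPM (day 3), and in CD127posCD25neg 878 CPM (day 20) and 803 CPM (day 3). The memory and effector list had a median log2 ratio of -0.06 and the interferon list of -0.03, day 20 over day 3, against 0.08 for all genes. HBB in cluster 6 was at 0 CPM (day 20) and 40.4 CPM (day 3) in CD127posCD25pos, and at 0.322 CPM (day 20) and 43.2 CPM (day 3) in CD127posCD25neg. The part of this difference in the values of other genes was not tested. With CD127posCD25neg left out, CD127posCD25pos alone gave 34 genes higher and 31 lower, from 177 cells on day 20 and 103 on day 3.

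Cells of cluster 6 from different sorts were compared next. Between CD127posCD25pos and CD127posCD25neg, 2 of 1463 genes were at least 2-fold higher on both days (0.137%) and 2 lower (0.137%), with a median log2 ratio of 0.04 for all genes. IL2RA, which encodes the sort marker CD25, had 83.9 CPM in CD127posCD25pos and 0.967 CPM in CD127posCD25neg on day 20, and 53.9 CPM in CD127posCD25pos and 2.27 CPM in CD127posCD25neg on day 3. ITGB1 was the other higher gene, at 144 CPM in CD127posCD25pos and 35.8 CPM in CD127posCD25neg on day 20, and 118 CPM in CD127posCD25pos and 34.7 CPM in CD127posCD25neg on day 3. In the other Tconv cells 1 gene was higher (0.0577%), IL2RA, and 12 of 1732 were lower (0.693%), led by GZMB and NKG7. The log2 ratios of ITGB1 there were 0.36 (day 20) and 0.15 (day 3). S100A6, LFNG and RGS1 came next without meeting the rule, with smallest log2 ratios of 0.99, 0.95 and 0.83.

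The 2 lower genes were ID2 and TYROBP. ID2 had 207 CPM in CD127posCD25pos and 528 CPM in CD127posCD25neg on day 20, and 270 CPM in CD127posCD25pos and 634 CPM in CD127posCD25neg on day 3. TYROBP had 52.5 CPM in CD127posCD25pos and 121 CPM in CD127posCD25neg on day 20, and 43.8 CPM in CD127posCD25pos and 119 CPM in CD127posCD25neg on day 3. Both also lay lower in CD127posCD25pos among the other Tconv cells, with a mean log2 ratio of -2.34 for ID2 and log2 ratios of -0.79 (day 20) and -1.20 (day 3) for TYROBP. By the mean ratio 3 of 3371 genes were at least 2-fold lower (0.089%), these and 1 without a symbol. CD3E, ATM and KRT10 followed, with smallest log2 ratios of -0.80, -0.76 and -0.67.

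**Figure D5:**
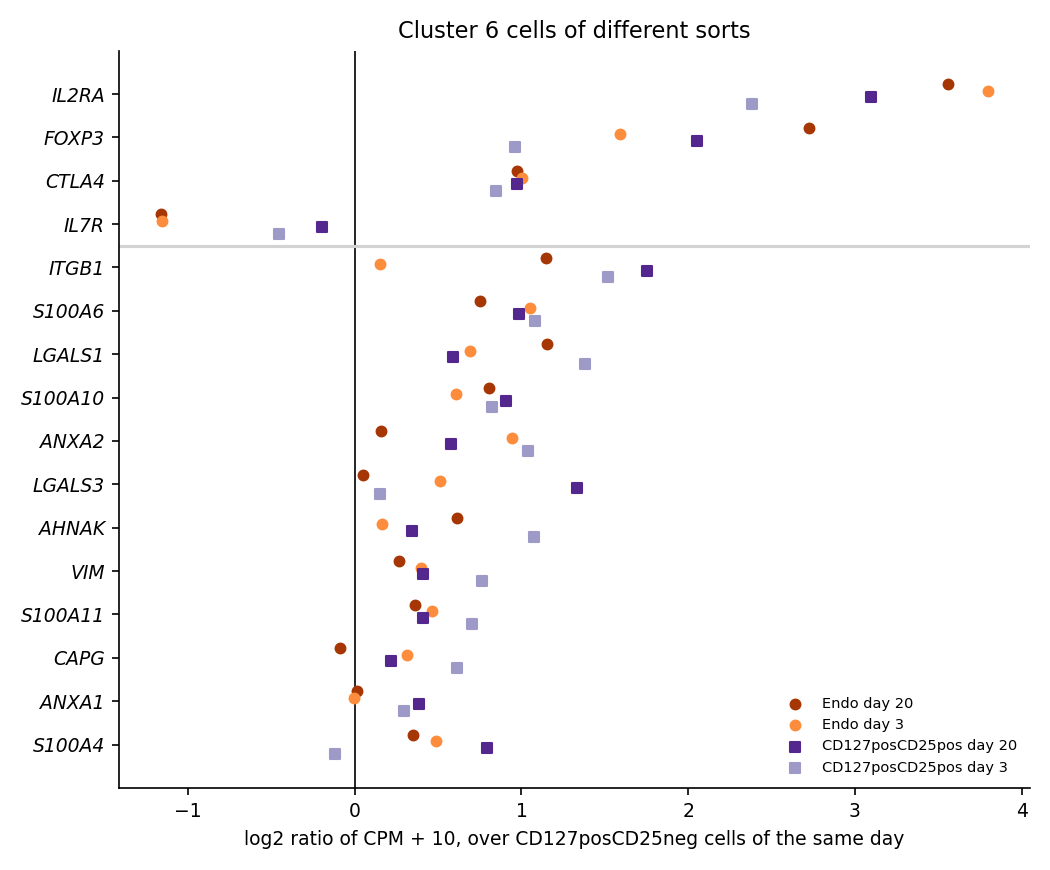
Log2 ratios of CPM plus 10 within cluster 6, over the CD127posCD25neg cells of the same day, for Endo (circles) and CD127posCD25pos (squares) on each day. The upper genes are Treg and sort marker genes and the lower ones the 12 measured memory and effector genes, 11 of which are above 0 on both days in CD127posCD25pos.

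Memory and effector genes differed between these sorts within cluster 6 mostly by less than 2-fold. In CD127posCD25pos over CD127posCD25neg, 11 of 12 measured members were above 0 on both days and 2 at least 2-fold higher by mean ratio (ITGB1 and S100A6), with a median log2 ratio of 0.73. Of all 3371 genes, 34.4% were above 0 on both days and 11 at least 2-fold higher (0.326%), with a median of 0.04. S100A4, the exception, had 94.4 CPM in CD127posCD25pos and 50.3 CPM in CD127posCD25neg on day 20, and 53.9 CPM in CD127posCD25pos and 59.4 CPM in CD127posCD25neg on day 3. AHNAK averaged under 20 CPM in CD127posCD25neg and entered through CD127posCD25pos, which fixed its direction. In the other Tconv cells the same list had a median of -0.25. There the CD127posCD25neg libraries hold most cells of cluster 5, whose part in this median was not tested. The share of ribosomal protein UMIs in cluster 6 was close in these sorts, with medians of 46.3% in CD127posCD25pos_D20, 47.1% in CD127posCD25pos_D3, 47.2% in CD127posCD25neg_D20 and 47.5% in CD127posCD25neg_D3. The naive list had a median of -0.25 in the same comparison.

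Endo cells of cluster 6, which could be compared only with a minimum of 50 cells, differed from CD127posCD25neg in 3 higher genes (0.203%) and 1 lower gene (0.0678%) of 1476. IL2RA had 119 CPM in Endo and 0.967 CPM in CD127posCD25neg on day 20, and 161 CPM in Endo and 2.27 CPM in CD127posCD25neg on day 3. RGS1, a regulator of chemokine receptor signalling, had 126 CPM in Endo and 16.8 CPM in CD127posCD25neg on day 20, and 81.8 CPM in Endo and 33.4 CPM in CD127posCD25neg on day 3. PLP2 had a mean log2 ratio of 1.12. The lower gene was IL7R, which encodes the other sort marker, at 333 CPM in Endo and 759 CPM in CD127posCD25neg on day 20, and 309 CPM in Endo and 702 CPM in CD127posCD25neg on day 3. The memory and effector list was above 0 on both days for 9 of 11 measured members, 0 of them 2-fold higher, with a median log2 ratio of 0.55. Of all 3376 genes, 28.1% were above 0 on both days and 0.385% at least 2-fold higher (0.207% lower), with a median of 0.02. In the other Tconv cells of these sorts 2 of 1789 genes were higher (0.112%), IL2RA and LMNA, and 9 lower (0.503%), led by GZMB and NKG7.

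FOXP3 RNA in cluster 6 followed the sorts. It had 16 UMIs in Endo_D20 (56.2 CPM, exact Poisson interval 32.1 to 91.2), 8 in Endo_D3 (21.1 CPM, 9.12 to 41.6), 12 in CD127posCD25pos_D20 (31.5 CPM, 16.3 to 55.0) and 3 in CD127posCD25pos_D3 (10.1 CPM, 2.09 to 29.6). The CD127posCD25neg libraries had 0 UMIs on day 20 (up to 1.19 CPM) and 1 UMI on day 3 (0.325 CPM, 0.00822 to 1.81), although they held most of the cells. The other Tconv cells had 13.7 CPM in Endo_D20, 17.3 in Endo_D3, 5.10 in CD127posCD25pos_D20 and 2.20 in CD127posCD25pos_D3, below cluster 6 in each, and outside its counting interval in Endo_D20 and CD127posCD25pos_D20. The authors' endoTreg cells of those libraries had 140 to 170 CPM. With RTKN2 and IL2RA, FOXP3 made 3 of 5 measured Treg core genes at least 2-fold higher by mean ratio in CD127posCD25pos than in CD127posCD25neg cells of cluster 6 (median log2 ratio 1.51). Of all 3371 genes, 0.326% were so. FOXP3, RTKN2 and IL2RA reached 20 CPM only through the CD127posCD25pos side, which fixed their direction and the sign of the list's median. IL2RA also encodes the sort marker CD25. CTLA4, an inhibitory receptor of Tregs, was at 20.2 to 23.8 CPM in the Endo and CD127posCD25pos libraries and at most 6.82 CPM in the CD127posCD25neg pair. It thus also entered through its high side. BATF, the remaining measured member, overlapped between sorts, at 53.9 to 123 CPM in the Endo and CD127posCD25pos libraries and 101 and 56.5 CPM in the CD127posCD25neg pair.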

How the data were processed

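Each library is a 10x 3' v2 capture of sorted macaque CD4 cells. The authors deposited unscaled UMI counts (16429 genes by 25397 cells), and the sums of all 25397 cells equal the totals in the authors' deposited cell table. Per the submitters' processing notes, Cell Ranger 2.1.1 was among the tools, while a genome build, cell filter or clustering method was not given in the sources used here, and no coordinates are printed. The authors also deposited each cell's library name (equal to a sample title), class and cluster number, which were used as they stand, and 0 columns of per-sample values went unused. No doublet caller was run: 65 cells of cluster 6 (2.19%) and 396 other Tconv cells (2.78%) (3 or more UMIs of platelet, monocyte, B cell or red cell markers, or UMIs above 2 times the median of the library) were left out in an alternative.

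Counts were summed over the cells compared in each library (284886 to 3101337 UMIs for cluster 6, 7538348 in all) and scaled to CPM. A symbol with several identifiers was represented by that with the highest UMI total, and 309 of 3130 identifiers without a symbol were named from a reference table. A call needed at least 2-fold the same way in every library (for days, in every sort; for sorts, on both days), with 100 cells per sum and at least 50 CPM on 1 side. Named genes are the 15 called per direction with the largest smallest ratio (8 for days and sorts), or the 5 nearest where fewer were called, without unnamed, ribosomal protein and mitochondrial genes, besides members of the lists; some of these genes are not reported here. The 26 lists held 287 entries, 246 of them found. A member was measured at 20 CPM or more on 1 side. A member under 20 CPM on the other side thus entered through its high side, which fixed its direction. The cells and lists were chosen with earlier results of these data known. With no replicates no test was run, and the intervals are exact (Poisson, Clopper-Pearson). The calling step was checked on simulated data. Python 3.11.15 with numpy 2.4.6, scipy 1.17.1 and pandas 2.3.3 was used; edgeR 4.0.16 (TMM) and DESeq2 1.42.0 (median of ratios) gave scaling factors only. Other alternatives were pseudocounts of 1 and 30 CPM, no filter, a minimum of 50 cells, pooled cells, equal weight per cluster, per-cell CPM, list means and leaving out each library or sort.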

Additional observations from a re-analysis of the deposited data

Results flagged for a closer look

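The share of Tconv cells in cluster 6 moved in different directions between days in different sorts. It was higher on day 20 than on day 3 by 1.12 percentage points in Endo and by 0.127 points in CD127posCD25pos, and it differed by -3.85 points in CD127posCD25neg. With 1 library per sort and day the difference between sorts was not tested, and the counting intervals of the 2 days overlapped in Endo and CD127posCD25pos but not in CD127posCD25neg.

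Cluster 6 also held cells of the CFSEpos sort, which entered no comparison of genes. CFSEpos_D20 had 4 such cells among 1149, and CFSEpos_D3 had 1 among 4142.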

How the results depend on the processing

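No named gene of cluster 6 over the other Tconv cells turned its direction under the alternatives run, and of their recomputed mean ratios 303 stayed within 1 SD and 37 moved further. The count of 2 higher genes became 4 with TMM factors, 5 with median-of-ratios factors, 1 with a pseudocount of 30 CPM, 6 with no filter on expression and 9 with cells pooled over libraries. The count of 27 lower genes became 17, 16, 42 and 81 with median-of-ratios factors, a pseudocount of 30 CPM, no filter and pooled cells, and 23 with TMM factors. Leaving out 1 library at a time gave 2 to 4 higher and 27 to 36 lower genes, with the ends of 4 and 36 reached without CD127posCD25pos_D3; fewer libraries can only keep or add calls under this rule. After the data were seen, scaling without ribosomal protein genes (7 higher, 28 lower) and leaving cluster 5 out (2 and 27) were added. For days, 0 lower genes became 1 with no filter, and without the sort CD127posCD25neg 34 were higher and 31 lower. For CD127posCD25pos over CD127posCD25neg, 2 higher genes became 4 with a pseudocount of 1 CPM and 4 with no filter, and 2 lower genes became 1 with a pseudocount of 30 CPM. As shares of all cells, cluster 6 made up 4.23% of Endo_D20 and 3.76% of Endo_D3. The cytotoxic list's median was -4.34 with a pseudocount of 1 CPM, and the interferon list's -1.16 as a mean and -1.23 with a pseudocount of 1 CPM. The causes were not tested. Endo_D20, with 99 cells, entered only with the 50-cell minimum (2 higher, 25 lower). No paired analysis was possible because the ratios were already taken within a library, a sort or a day, each with 1 library, and no model was fitted. Depth limits the Endo and CD127posCD25pos sums, of 284886 to 381285 UMIs, most.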
